A study of Mus musculus with 6 samples.

Results

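The transcripts of 9 genes that carry or restrain transforming growth factor-β (TGF-β) signals inside the cell were described in single cells of the mouse aortic root and ascending aorta. They were the receptor-activated Smads Smad1, Smad2, Smad3 and Smad5, the common partner Smad4, the inhibitory Smads Smad6 and Smad7, and the corepressors Ski and Skil (SnoN). The members were chosen by symbol from the 31055 features of the count table, and each of the 9 symbols matched 1 row. Transcripts were counted as unique molecular identifiers (UMIs) in 24972 of 30716 cell barcodes, those with a gene number between 1000 and 5000, a UMI number between 1500 and 25000, and a mitochondrial share below 20%. Smad3 was 4.07-fold lower in cells like vascular smooth muscle (VSMC-like) than in fibroblast-like cells. Smad1 and Smad5 were highest in endothelial-like cells, and Smad6 was at background in leukocyte-like cells. Smad7 was higher in VSMC2-like than in VSMC1-like cells of every library, but not than in every VSMC1-like subtype.

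TGF-β binds the receptors Tgfbr2 and Tgfbr1, which phosphorylate Smad2 and Smad3, whereas bone morphogenetic proteins (BMPs) act through other receptors on Smad1 and Smad5. Phosphorylated Smads bind Smad4 and move to the nucleus, where Ski and Skil can hold their target genes silent. Smad6 and Smad7 are themselves induced by the pathway and close feedback loops, Smad7 against both branches and Smad6 mainly against the BMP branch. In Loeys-Dietz syndrome (LDS), a connective tissue disease, genes of this pathway are mutated and arteries widen, often near the heart. The study asked how vascular smooth muscle cells (VSMCs) of this region differ in an LDS mouse model.

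The labels list 6 samples from mice of 16 weeks on a 129 background, all female by the study's methods, each a suspension of root and ascending aorta. Of the 4 controls, 2 were Tgfbr1+/+ and 2 were Tgfbr1+/+; Wnt2CRE; EGFP-L10a, in which a Cre driven by a Wnt2 promoter switches on a tracer, and the 2 LDS mice were Tgfbr1M318R/+, heterozygous in every cell for a receptor missense allele. The count table separates 6 libraries by a number at the end of each barcode, and no source used here pairs these numbers with mice. Control and LDS mice were therefore not compared, and values are given within each library, with the median and range over libraries in place of a test. A difference was called only where every library with at least 20 cells of both groups had the same sign, and the share of all genes that met this rule is printed beside the members' count.

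Promoter sequences from RefSeq (GRCm38.p6) matched 5 members, Smad1, Smad3, Smad5, Smad6 and Ski, in 7 windows from 250 bases before to 50 bases after an annotated start. Those of Smad6 and Smad3, the members with the highest and the lowest ratio of VSMC-like over fibroblast-like cells, are printed 5′ to 3′ from the first base of the window to the start, that of Smad6 4 bases further so that its motif is whole. Capitals mark the palindrome GTCTAGAC, the Smad binding element.
Smad6, chr9:64022056-64022309, minus strand: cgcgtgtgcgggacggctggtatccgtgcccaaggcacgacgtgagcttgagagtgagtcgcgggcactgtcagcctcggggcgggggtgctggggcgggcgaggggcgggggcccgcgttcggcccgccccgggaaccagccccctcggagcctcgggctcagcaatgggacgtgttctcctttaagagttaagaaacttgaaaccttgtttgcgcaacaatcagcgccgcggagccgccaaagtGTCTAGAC
Smad3, chr9:63757995-63758244, minus strand: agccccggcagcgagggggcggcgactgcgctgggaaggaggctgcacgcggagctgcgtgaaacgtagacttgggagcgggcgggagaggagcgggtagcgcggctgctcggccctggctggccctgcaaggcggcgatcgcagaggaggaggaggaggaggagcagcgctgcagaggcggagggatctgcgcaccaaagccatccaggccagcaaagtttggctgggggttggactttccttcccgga
The palindrome began 4 bases before the start of Smad6, was found in no other member's window, and is held by 0.213% of 32817 promoter windows of the same length. On both strands, the GC-rich letters GGCGCC were found in the window of Ski and, as a single site shared by 2 overlapping windows, of Smad5, against 11.9% of all windows. The letters CAGACA (21.0% of all windows) and TGANTCA (7.81%) were in none of the 7. Smad6 and Smad3 were 66.5% and 69.2% G or C over the printed bases. A match is a description of these letters, and no binding was measured.

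The members lie on 6 chromosomes of mm10. Smad2 (ENSMUSG00000024563, chromosome 18 from 76241580 to 76310963, plus strand), Smad4 (ENSMUSG00000024515, chromosome 18 from 73639009 to 73703780, minus strand) and Smad7 (ENSMUSG00000025880, chromosome 18 from 75367529 to 75395935, plus strand) share a chromosome. Smad3 (ENSMUSG00000032402, chromosome 9 from 63646767 to 63757994, minus strand) and Smad6 (ENSMUSG00000036867, chromosome 9 from 63953076 to 64022059, minus strand) lie near each other. Smad1 (ENSMUSG00000031681) spans chromosome 8 from 79338395 to 79399518 on the minus strand. Smad5 (ENSMUSG00000021540) spans chromosome 13 from 56703010 to 56742377 on the plus strand. Ski (ENSMUSG00000029050) spans chromosome 4 from 155154075 to 155222592 on the minus strand, and Skil (ENSMUSG00000027660) chromosome 3 from 31095058 to 31122577 on the plus strand. All 9 are protein-coding, and none overlapped another gene of the count table on either strand. Between 2753 UMIs (Smad3) and 40790 UMIs (Skil) were counted over the kept cells.

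The 6 libraries held between 1863 and 6395 kept cells, 18218282 to 38105145 UMIs, and a median of 5572 to 9838 UMIs per cell. Clustering without the members gave 10374 VSMC-like cells, 13483 fibroblast-like, 568 endothelial-like and 442 leukocyte-like cells, and left 105 cells led by Cd3e and Trbc1 unnamed. Myh11, the smooth muscle myosin, stood at 2441 CPM (a gene's UMIs scaled to a common total per group of cells) in VSMC-like and 45.9 CPM in fibroblast-like cells, Dcn at 392 and 14358 CPM, and Cdh5 and Ptprc at 565 CPM and 223 CPM in endothelial-like and leukocyte-like cells. Library 6 had 10 endothelial-like cells and was left out of the endothelial values and ratios by library, while pooled cluster levels and shares of cells include it. Library 5 stood apart with the highest Smad7 in VSMC-like cells. It also had the highest share there of the dissociation list, genes that tissue digestion can induce (2.59% of UMIs, against 1.40 to 1.87% in the others). Digestion time and day of preparation differed between samples and could not be paired with libraries. Among kept cells, 76 barcode sequences of 24896 occurred in more than 1 library. Free RNA was gauged from genes of other classes in leukocyte-like cells, where Myh11 was at 10.0% and Dcn at 7.79% of their level in all cells. UMIs at the 3′ end are not corrected for capture, so levels are compared between cells for the same gene and not between genes.

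Smad3, which with Smad2 relays the signal of the TGF-β receptors, was largely a fibroblast transcript in this tissue. Its level in fibroblast-like cells was 24.5 CPM (range 19.6 to 34.4), and in VSMC-like cells 5.9 CPM (4.7 to 7.7). The highest VSMC-like value lay below the lowest fibroblast-like value. The median log2 ratio of VSMC-like over fibroblast-like cells was -2.02 (range -2.33 to -1.75), a 4.07-fold lower level, lower in 6 of 6 libraries. Among 8732 genes that reached 10 CPM in either class, 6.94% had a lower median ratio. The 568 endothelial-like cells held 17 Smad3 UMIs, with 6.7, 0.0, 9.2, 3.0 and 6.2 CPM in libraries 1 to 5, and leukocyte-like cells held 13. Both were below fibroblast-like cells in every library compared, and their order with VSMC-like cells was mixed. Free RNA would give about 1.54 CPM of Smad3.

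Smad2 differed in the same direction and by less. VSMC-like cells had 22.0 CPM (19.0 to 26.6) and fibroblast-like cells 35.1 CPM (29.0 to 40.4), and the ranges did not overlap. The log2 ratio was -0.66 (-0.82 to -0.45), lower in 6 of 6 libraries. Leukocyte-like cells stood above VSMC-like cells in every library (median 49.6 CPM, 24.8 to 64.3), as did endothelial-like cells with 63.5, 26.5, 73.4, 39.0 and 58.3 CPM in libraries 1 to 5. Fibroblast-like, endothelial-like and leukocyte-like cells held no order of Smad2 that was the same in every library. Smad4, the partner of all receptor-activated Smads, had 56.9 CPM (48.4 to 72.2) in VSMC-like and 62.0 CPM (48.6 to 75.0) in fibroblast-like cells, with a log2 ratio of -0.06 (-0.21 to 0.11) and 2 of 6 libraries higher.

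Across VSMC-like over fibroblast-like cells, 5 of the 9 members were called, and all 5 were lower (Smad2, Smad3, Smad5, Smad7 and Ski). The Smad7 call was lost under several alternatives, given below. Of all genes tested, 72.6% were called, 34.7% higher and 38% lower. The members' share thus lies below the background for all calls and for higher calls, and above it for lower calls. The median ratio over the members was -0.27, against -0.02 over all genes.

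**Figure D1:**
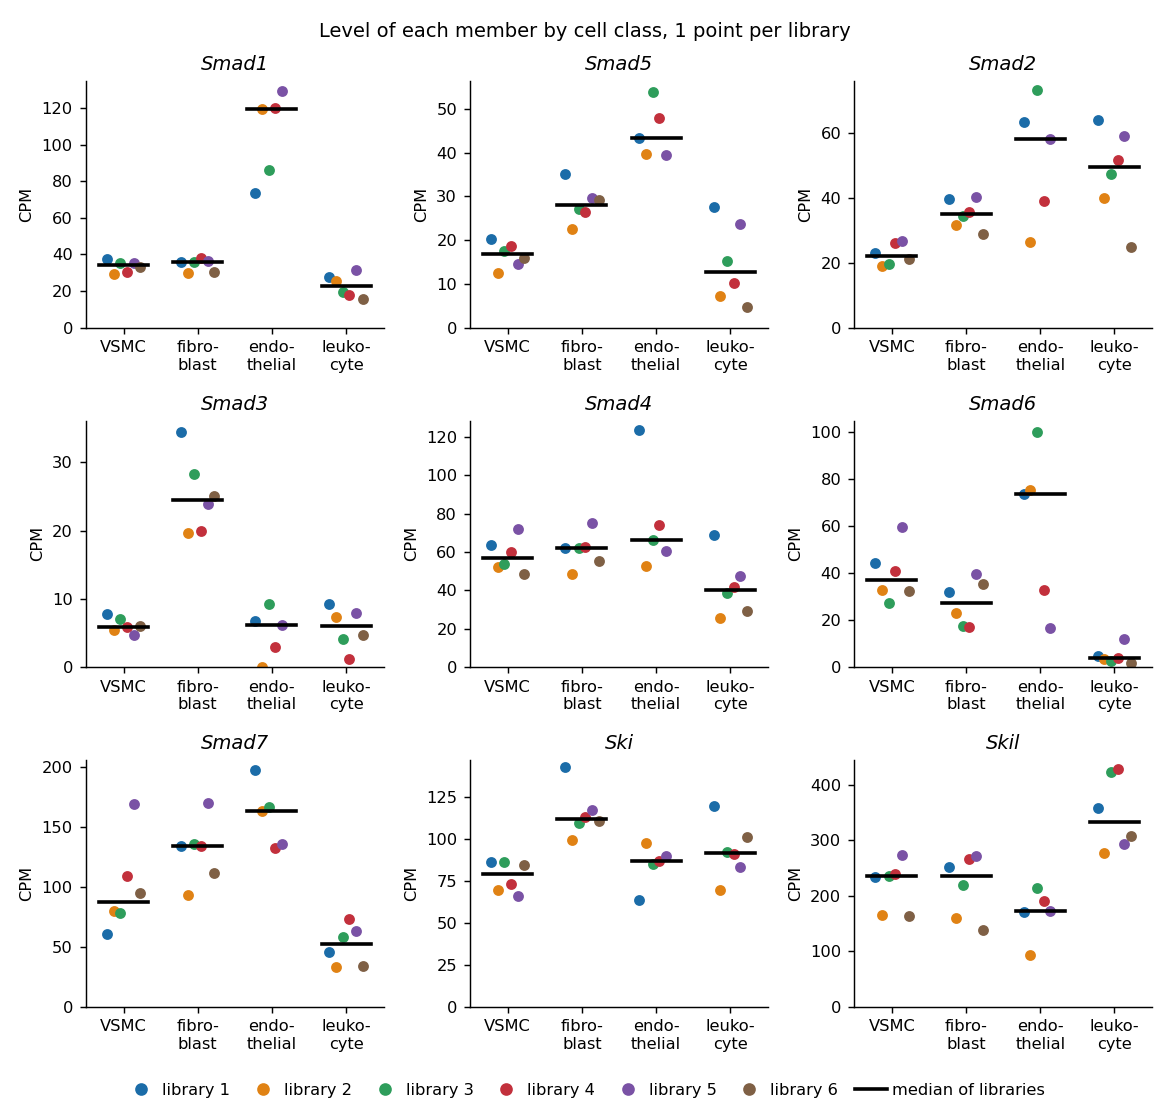
Level of each member in CPM (vertical axes, each starting at 0) by cell class, with a point for each library with at least 20 cells of the class and a black bar at the median. Smad3 separates fibroblast-like cells (19.6 to 34.4 CPM) from VSMC-like cells (4.7 to 7.7 CPM), and Smad1 separates endothelial-like cells from all other classes.

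Smad1 and Smad5, which relay BMP signals, were highest in endothelial-like cells. Smad1 reached 73.6, 119, 86.1, 119.9 and 129 CPM there in libraries 1 to 5. Its medians were 34.1 CPM (29.4 to 37.3) in VSMC-like, 35.8 CPM (29.9 to 38.0) in fibroblast-like and 22.5 CPM (15.5 to 31.6) in leukocyte-like cells, so that the endothelial-like range overlapped with none of the others. The log2 ratio of endothelial-like over VSMC-like cells was 1.88 (0.98 to 2.02), a 3.67-fold higher level. Leukocyte-like cells were below VSMC-like and fibroblast-like cells in 6 of 6 libraries, and VSMC-like and fibroblast-like cells did not differ beyond their spread (log2 ratio -0.02, -0.33 to 0.12).

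Smad5 followed the same order with a further step between the 2 most numerous classes. Endothelial-like cells had 43.5, 39.8, 53.9, 48.0 and 39.6 CPM in libraries 1 to 5, fibroblast-like cells 28.1 CPM (22.5 to 35.1) and VSMC-like cells 16.7 CPM (12.5 to 20.2). These 3 ranges did not overlap. The log2 ratio was 1.43 (1.11 to 1.66) for endothelial-like over VSMC-like cells and -0.82 (-1.01 to -0.51) for VSMC-like over fibroblast-like cells. Leukocyte-like cells (12.7 CPM, 4.7 to 27.5) were below fibroblast-like cells in 6 of 6 libraries and below VSMC-like cells in 4 of 6.

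Of the 8 members tested between endothelial-like and VSMC-like cells, Smad1, Smad2 and Smad5 were called higher and Skil lower, where 57.4% of 9293 genes were called, 34% higher and 23.4% lower. Against fibroblast-like cells, Smad1 and Smad5 were called higher and Smad3, Ski and Skil lower, with 52% of 9323 genes called, 31.3% higher and 20.7% lower.

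Smad6 was the only member with a positive median ratio of VSMC-like over fibroblast-like cells above 0.5. It stood at 36.8 CPM (27.4 to 59.4) in VSMC-like and 27.3 CPM (17.2 to 39.6) in fibroblast-like cells, and these ranges overlapped. The log2 ratio was 0.56 (-0.12 to 1.24), positive in 5 of 6 libraries and negative in library 6. Endothelial-like cells had the widest range in CPM, with 73.6, 75.1, 99.8, 33.0 and 16.7 CPM in libraries 1 to 5, and libraries 4 and 5 were low there. Leukocyte-like cells had 11 Smad6 UMIs in all and a median of 3.7 CPM (1.6 to 11.9). Pooled, they stood at 3.79 CPM, near the 3.31 CPM that free RNA would give, so Smad6 was not detectable above background in them.

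Smad7 was at 87.3 CPM (60.2 to 169) in VSMC-like and 134 CPM (92.8 to 170.2) in fibroblast-like cells. Library 5 held the highest value of both classes. The log2 ratio was -0.27 (-1.15 to -0.01), lower in 6 of 6 libraries, and library 5 lay close to 0. Clusters 3, 8 and 11 of the VSMC-like cells (3340, 728 and 357 cells) had Tnnt2 or Rgs5, which mark cardiomyocytes and pericytes, among their leading genes. Cluster 3 was 91.8% VSMC1-like, a subcluster named below, and also had Des and Ptprz1 among its leading genes. Leaving these clusters out thus removed many smooth muscle cells. Without them the Smad7 ratio was -0.01 with 3 of 6 libraries higher, so the call was lost without those clusters, and also with TMM factors (-0.16), without doublets (-0.30) and as a mean over cells (-0.24), the last 3 with 1 library higher each. Summed over 6 genes, cardiomyocyte markers were at 114 to 388 CPM in all VSMC-like cells and at 89.2 to 148 CPM without these clusters, and pericyte markers at 342 to 886 CPM and 205 to 369 CPM, with Vtn at 0 UMIs in the remaining cells. The genes of the dissociation list moved too, from a summed median of 17393 CPM (13960 to 25878) in all VSMC-like cells to 23864 CPM (16214 to 29284) without the clusters. In fibroblast-like cells their sum was 24846 CPM (20045 to 32473), and their part in the Smad7 ratio was not tested. The calls of Smad2, Smad3, Smad5 and Ski held without the clusters, at -0.53, -1.88, -0.72 and -0.49. Endothelial-like cells had 197, 163, 166, 132 and 135 CPM of Smad7 in libraries 1 to 5 and leukocyte-like cells 52.2 CPM (32.9 to 73.3), the lowest level of the 4 classes in every library.

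Ski and Skil, related corepressors of Smad target genes, were distributed differently over the classes. Ski was highest in fibroblast-like cells at 112 CPM (98.9 to 143), above VSMC-like cells at 78.7 CPM (65.9 to 86.3) without overlap, with a log2 ratio of -0.57 (-0.83 to -0.34). Endothelial-like and leukocyte-like cells were below fibroblast-like cells in every library compared. Skil was highest in leukocyte-like cells at 333 CPM (277 to 427), above the range of each other named class, and its log2 ratio over VSMC-like cells was 0.79 (0.10 to 0.91). Of the 442 leukocyte-like cells, 405 were in cluster 10, led by C1qb. The 105 unnamed cells led by Cd3e and Trbc1 had 133 CPM of Skil and 35.8 CPM of Ski, from 67 and 18 UMIs, the lowest of the clusters with at least 100 cells. VSMC-like cells had 235 CPM of Skil (163 to 273) and fibroblast-like cells 235 CPM (137 to 271), with a log2 ratio of 0.03 (-0.15 to 0.25) and no common direction. Endothelial-like cells were the lowest class for Skil in each of the 5 libraries used, at 171, 92.8, 215, 190.4 and 173 CPM. Of the 8 members tested between leukocyte-like and VSMC-like cells, Smad2, Ski and Skil were called higher and Smad1, Smad6 and Smad7 lower (60.8% of 9202 genes were called, 24.1% higher and 36.7% lower). Against fibroblast-like cells, Skil was called higher and Smad1, Smad3, Smad5, Smad6, Smad7 and Ski lower (54.8% of 9332 genes, 20.1% higher and 34.7% lower).

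The VSMC-like cells were clustered again without the members and without the genes of every list used here. The lowest resolution split off 2 subclusters above 5% of these cells, which were named VSMC1-like (7747 cells) and VSMC2-like (1723 cells) after the study's genes, Tes and Ptprz1 at 120.2 and 201 CPM in VSMC1-like against 12.7 and 52.7 CPM in VSMC2-like cells, and Enpep and Notch3 at 20.0 and 12 CPM against 151 and 93.7 CPM. The other 904 VSMC-like cells were left out of this comparison.

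Smad7 was the member that differed most between the subclusters. VSMC1-like cells had 78.8 CPM (57.1 to 165) and VSMC2-like cells 127 CPM (91.2 to 183). The groups overlapped across libraries, and within each library VSMC2-like cells were higher. The log2 ratio was 0.68 (0.14 to 0.78), a 1.60-fold higher level, and library 5, with the highest Smad7 in both subclusters, had the smallest ratio. Among the 7706 genes tested, 95.9% had a lower median ratio. Smad7 moved together with the dissociation list, genes such as Fos and Ier2 that digestion of tissue can induce. Whether digestion induced them here was not tested, and the study describes stress and inflammatory pathways as enriched in VSMC2. Of the 23 genes of the list, 20 were higher in VSMC2-like cells of every library. The list made up 2.01 to 3.38% of UMIs in VSMC2-like and 1.28 to 2.49% in VSMC1-like cells. When cells of both subclusters were matched on this share within each library, the Smad7 ratio was 0.37, still higher in 6 of 6 libraries. Of 8 fibroblast markers, 6 were also higher and 1 lower in VSMC2-like cells of every library, summed to 1243 to 5819 CPM against 937 to 1918 CPM, with none at 0. Without the subtype led by fibroblast markers, 4 of these 8 were still higher and 2 lower (median 0.38), with sums of 485 to 1425 CPM in VSMC2-like and 924 to 1857 CPM in VSMC1-like cells. The Smad7 ratio was then 0.50, higher in 6 of 6. Cells marked as doublets were 5.69 to 23.9% of VSMC2-like and 1.12 to 4.84% of VSMC1-like cells, and without them the ratio was 0.66.

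Smad6 stood at 43.0 CPM (28.1 to 77.4) in VSMC2-like and 36.0 CPM (28.4 to 57.1) in VSMC1-like cells. Its log2 ratio was 0.37 (-0.27 to 0.90), higher in 4 of 6 libraries and lower in libraries 3 and 4, so it was not called. Smad1 was lower in VSMC2-like cells, at 28.5 CPM (19.0 to 31.0) against 34.9 CPM (30.0 to 37.6), a log2 ratio of -0.28 (-0.82 to -0.08) with 6 of 6 libraries lower. Matched on the dissociation share, the Smad1 ratio was -0.36 and 1 library was higher. Skil had 206 CPM (155 to 234) and 241 CPM (164 to 282), a log2 ratio of -0.14 (-0.30 to -0.07) with 6 of 6 libraries lower, and 5 of 6 without the VSMC1-like subtype led by dissociation genes.

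Smad2 was at 25.3 CPM (19.3 to 33.6) in VSMC2-like and 22.1 CPM (17.3 to 26.4) in VSMC1-like cells, with a log2 ratio of 0.08 (0.02 to 0.57). It was higher in 6 of 6 libraries, and in 3 of 6 after matching on the dissociation share. Of 10 alternatives, 7 ended this call, with values from 0.09 to 0.32. Smad4, Smad5 and Ski had ratios of -0.12 (-0.28 to 0.18), 0.03 (-0.47 to 0.18) and 0.05 (-0.29 to 0.31), with libraries on both sides of 0. Without the subtype led by fibroblast markers, Smad5 was lower in 6 of 6 libraries (-0.15). Smad3, under the minimum of 10 CPM in VSMC-like cells, was not tested, and its values were 8.4 CPM (4.0 to 9.1) and 5.1 CPM (4.7 to 7.7). In all, 4 of the 8 members tested were called, 2 in each direction, where 33.6% of 7706 genes were called, 12.4% higher and 21.2% lower. The median ratio over these members was 0.04, against -0.06 over all genes.

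**Figure D2:**
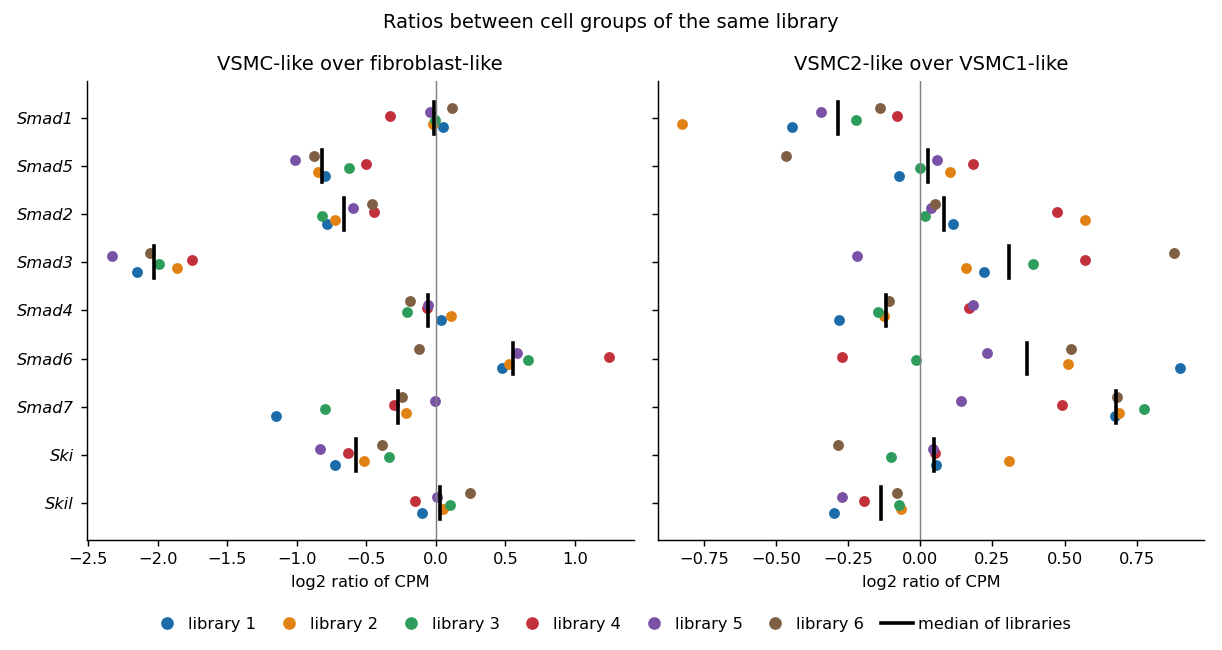
log2 ratio of CPM within each library (points) and the median (black bar) for VSMC-like over fibroblast-like cells on the left and VSMC2-like over VSMC1-like cells on the right, on axes of different width. Smad3 lies between -2.33 and -1.75 on the left, and Smad7 lies above 0 in all 6 libraries on the right.

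Finer subtypes of the VSMC-like cells divided Smad7 further. Levels of subtypes and clusters are pooled over libraries, so a library with many cells weighs more. Subtype 1, led by Gm17056, Pou3f1, Gdf15, Mt1 and Sgk1 and with Atf3 and Fos among its 10 leading genes, had 168 CPM of Smad7 over 1503 cells, and 3.75% of its UMIs came from the dissociation list. Subtype 0, led by Nrgn, Ccdc42, Cmtm8, Tes and Casq1, had 73.2 CPM over 2888 cells and a dissociation share of 1.04%. Both belong to the VSMC1-like cells, and subtype 1 was higher in 6 of 6 libraries. Library 5 gave 730 of the cells of subtype 1, and the medians over libraries were 134 CPM (91.1 to 229.7) in subtype 1 and 68.9 CPM (42.1 to 117) in subtype 0. Subtype 2, led by Olfr558, Pgam2, S1pr3, Gja4 and Nrip2 and assigned to VSMC2-like cells, had 131 CPM of Smad7 and a dissociation share of 2.77%. The VSMC1-like subtype 1 was above subtype 2 in 4 of 6 libraries. Among the clusters of all cells, cluster 5 (96.2% VSMC2-like) was above cluster 1 (86.5% VSMC1-like) in 3 of 6 libraries. It was above cluster 3 (91.8% VSMC1-like) in 6 of 6. Subtype 7, led by Cygb, Abca8a, Clec3b, Angptl7 and Cytl1 with Dpt and Pi16, had 172 CPM, and 53.5% of its 333 cells were marked as doublets. Subtype 6, led by Cd74, H2-Aa, H2-Eb1, H2-Ab1 and C4b, had 157 CPM, and subtype 7 was above it in 3 of 5 libraries, so these do not differ beyond their spread. Pooled Smad3 was highest of the subtypes in subtype 7, at 12.8 CPM from 40 UMIs, and above subtype 6 in 3 of 5 libraries. Low Smad7 levels, not ordered here, were 57.4 CPM in subtype 8, led by Igfbp2, Akap5, Trnp1 and Cldn3, and 64.5 CPM in subtype 9, led by Dlx6, Negr1, Grin2b, Prrx2 and Coch.

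Smad4 kept between 55.5 and 67.0 CPM in the 11 subtypes with at least 100 cells. Smad6 ran from 25.2 CPM in subtype 9 to 67.3 CPM in subtype 10, led by 2210407C18Rik, Tnnt2, Olfr224, Gmeb1 and Pecam1. Smad1 was at 25.7 CPM in subtype 2 and 45.2 CPM in subtype 3, led by Tnxb, Gm26699, Myo9b, Adcy1 and Ptprj. Subtype 3 also had the highest pooled Ski (112 CPM) and Skil (295 CPM), and its median of 4269 UMIs per cell was the lowest of these subtypes. For Ski, subtype 7 was above subtype 3 in 2 of 5 libraries. For Skil, the medians over libraries were 286.5 CPM in subtype 3 and 285.5 CPM in subtype 10, so these are not ordered.

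**Figure D3:**
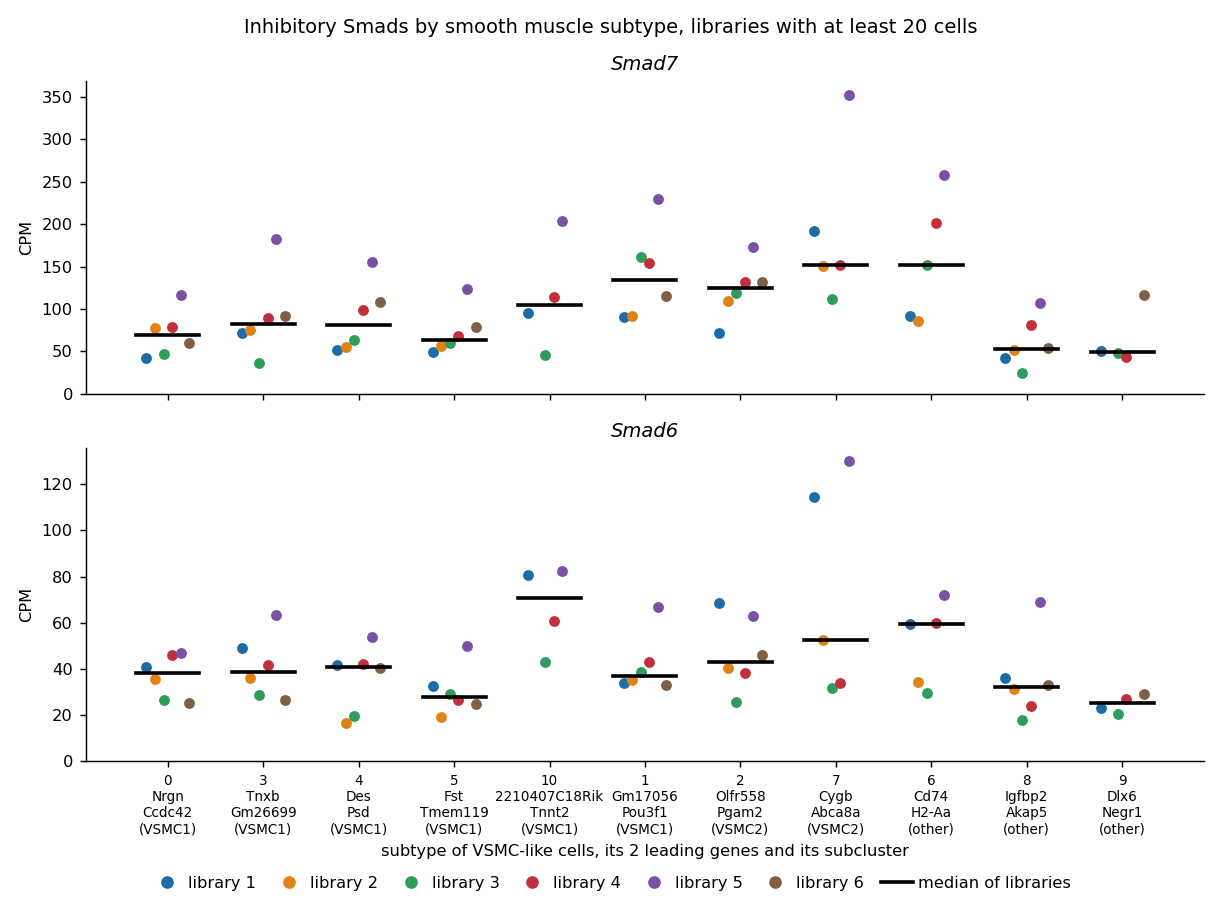
Smad7 (top) and Smad6 (bottom) in CPM, from 0, in each subtype of VSMC-like cells with its first leading genes and subcluster, with a point per library of at least 20 cells and a black bar at the median. Library 5 is the highest for Smad7 in each subtype it has a point in, and the VSMC1-like subtype 1 lies above subtype 0.

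Among the fibroblast-like clusters, Smad7 was high in 2. Cluster 4, led by Cilp2, Coch, Spp1, Ucma and Tmem178, had 201 CPM over 1588 cells and stood above clusters 0, 2, 6 and 7 in 6 of 6 libraries. Cluster 9, led by Ptn, Igfbp3, Angpt4, AL583891.1 and Ngfr, had 207 CPM over 549 cells and stood above those clusters in 5 of 5 libraries with enough cells. These clusters were singled out after their values were seen. Clusters 0, 2, 6 and 7 lay between 111 and 120.0 CPM. Their dissociation shares were 2.25 to 2.70%, against 2.98% in cluster 4 and 2.40% in cluster 9. Smad6 was highest of the fibroblast-like clusters in cluster 9 at 56.1 CPM, above clusters 0, 2, 6 and 7 in 5 of 5 libraries, and lowest in cluster 0 at 18.5 CPM, led by Has1, Spon2, Cadm3, Ifi205 and Tnfaip6. Ski went the other way in cluster 4, at 80.7 CPM and below clusters 0, 2, 6 and 7 in 6 of 6 libraries. Smad3 was at 18.0 CPM in cluster 4, below clusters 0, 2, 6 and 7 in 4 of 6 libraries. Cluster 9 had 31.1 CPM of Smad3 and cluster 6, led by Cytl1, Cst6, Pthlh, Prss12 and Gm17455, had 30.8 CPM, with cluster 9 above it in 2 of 5 libraries.

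The endothelial-like cells were in cluster 12, led by Gpihbp1, Rbp7, Cd36, Cd300lg and Aqp7, and cluster 13, led by Ccl21a, Mmrn1, Nts, Serpina1b and Flt4. Smad6 was at 36.9 CPM in cluster 12 and 83.5 CPM in cluster 13, higher in cluster 13 in 3 of 3 libraries with 20 cells of each. Ski (70.7 and 105 CPM) and Skil (147 and 243 CPM) had the same direction in 3 of 3. Smad1 was at 91.4 CPM in cluster 12 and 126 CPM in cluster 13, with 1 of 3 libraries higher. Skil was highest in the leukocyte-like cluster 10, led by C1qb, C1qa, C1qc, Ctss and Lyz2, at 367 CPM, among clusters with at least 100 cells.

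**Figure D4:**
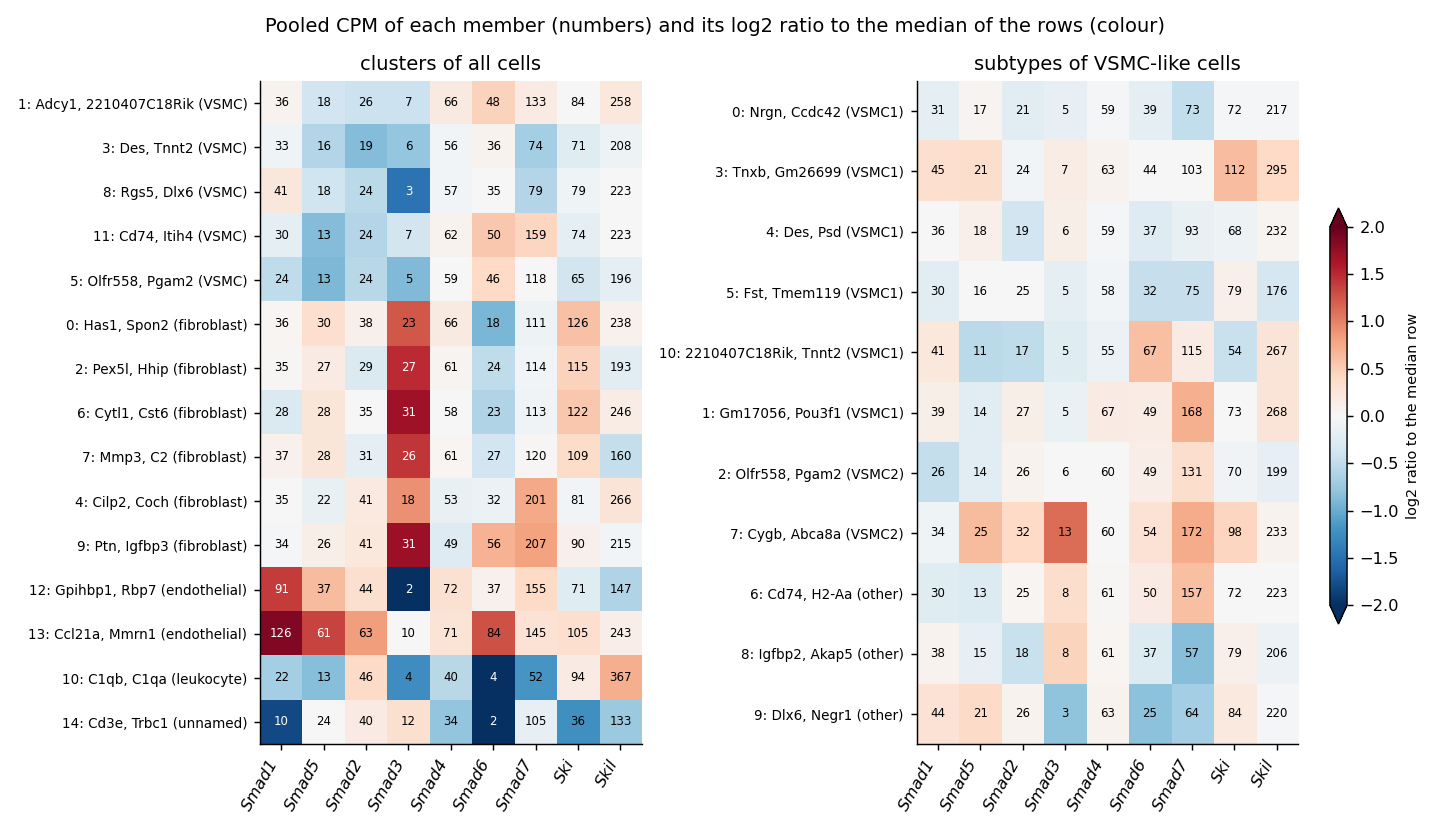
Pooled CPM of each member (number in each cell) in the clusters of all kept cells (left) and the subtypes of VSMC-like cells (right), those with at least 100 cells, coloured by the log2 ratio to the gene's median over the rows. The rows of endothelial-like clusters 12 and 13 stand out for Smad1 (91.4 and 126 CPM) and the fibroblast-like rows for Smad3 (18.0 to 31.1 CPM).

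Because Smad7 moved with the dissociation list, the cells of each class and library were ordered by their share of UMIs from that list and split into 3 equal groups, a comparison added after the data were seen. The groups were not balanced over the subtypes, whose dissociation shares and Smad7 levels differ as given above. In VSMC-like cells, Smad7 was at 136 CPM in the highest and 62.9 CPM in the lowest group (medians over libraries), with a log2 ratio of 0.96 (0.53 to 1.96) and 6 of 6 libraries higher. In fibroblast-like cells it was at 164 and 104 CPM, a ratio of 0.66 (0.56 to 0.78), again in 6 of 6. These ratios exceeded those of 97.8% of 7706 genes and 96.8% of 8125 genes. Smad2 was called in VSMC-like cells, with 0.43 (0.11 to 0.72), and Skil in fibroblast-like cells, with 0.45 (0.13 to 0.69). Smad7 and Smad2 were the 2 called of 8 members tested in VSMC-like cells, where 35.1% of genes were called and 8.68% were higher, and Smad7 and Skil the 2 of 9 in fibroblast-like cells, where 31.4% were called and 9.58% were higher. Smad4 had libraries on both sides of 0 in each class (0.05, -0.20 to 0.15, and 0.07, -0.04 to 0.12).

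**Figure D5:**
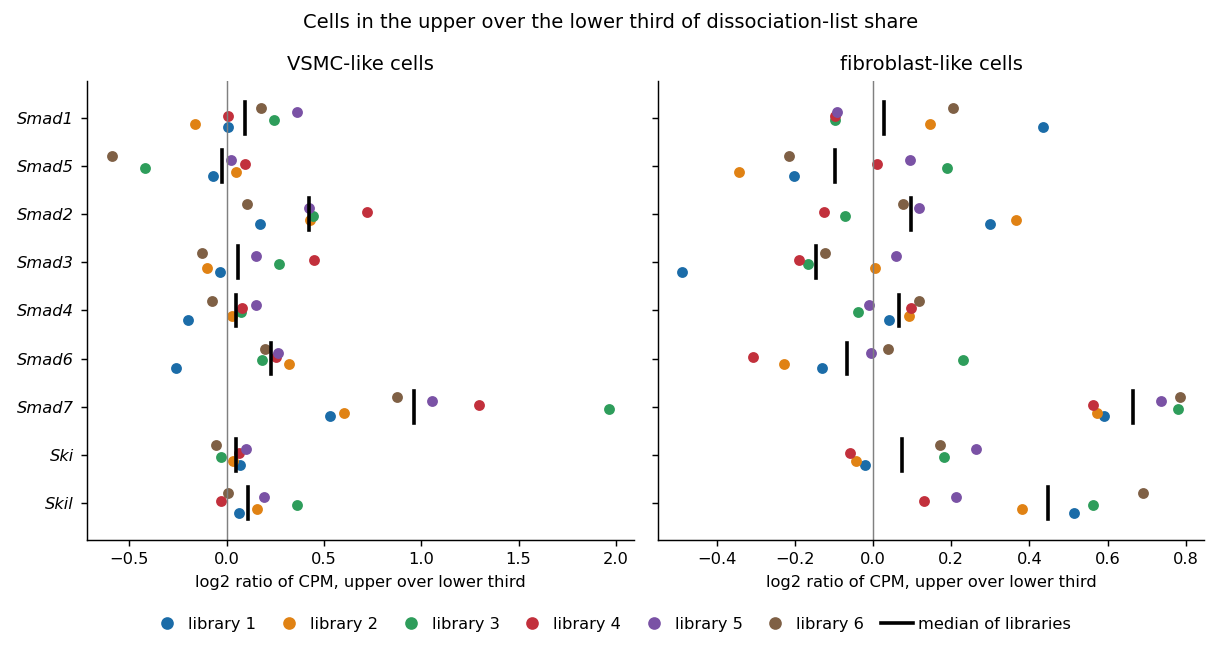
log2 ratio of CPM between the cells with the highest and those with the lowest share of dissociation-list UMIs, each group holding 1 of 3 equal parts of a library's cells, with a point per library and a black bar at the median. Smad7 lies right of 0 in all 6 libraries in VSMC-like (0.53 to 1.96) and fibroblast-like cells (0.56 to 0.78).

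Other genes of the pathway were counted from lists written by their role in it. Of 9 receptors tested between VSMC-like and fibroblast-like cells, 3 were higher and 6 lower in every library, beside 34.7% and 38% of all genes. Tgfbr2, the ligand-binding receptor, fell by 1.86 on the log2 scale and Acvrl1 by 1.78, while Tgfbr1 had a ratio of 0.73, Bmpr1a 0.77 and Bmpr1b 1.93. Of 24 Smad regulators, 8 were higher and 11 lower, with Hipk2 (0.99) and Ncor1 (0.55) at the upper end and the repressors Zeb2 (-1.34) and Tgif1 (-1.87) at the lower end. Of 24 TGF-β targets, 12 were higher, led by the contractile Cnn1 (6.19) and Acta2 (5.30), and 9 were lower, with Snai1 (-3.93) and Tgfbi (-6.44) last. Acta2, Cnn1 and Tagln of this list were among the markers that named the VSMC-like class. Col1a1 (-2.01, lower in 6 of 6 libraries) was among those that named the fibroblast-like class. The directions of these genes were thus fixed by the naming. Of 10 BMP targets, Atoh8 (1.74) and Hey2 (1.74) were higher and 5 were lower, Tmem100 (-6.95) and Bmper (-6.07) most. The medians of the 4 lists were -0.98, -0.14, 0.31 and -0.47, against -0.02 over all genes. Of 23 dissociation genes, 2 were higher and 13 lower in VSMC-like cells, from Hspb1 (2.16) and Klf6 (0.37) to Ier3 (-2.17) and Myc (-3.25).

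In VSMC2-like over VSMC1-like cells, 1 of 9 receptors was higher and 4 were lower, beside 12.4% and 21.2% of all genes. Eng, a coreceptor for TGF-β and BMP ligands, had a ratio of 0.53, Tgfbr2 0.09 with 3 of 6 libraries higher, Tgfbr1 -0.52 and Bmpr1b -2.23. Of 22 Smad regulators, 4 were higher and 8 lower, with Zeb2 (1.08) and the ubiquitin ligase Smurf1 (0.68) highest and Hipk2 (-0.53) and Pmepa1 (-0.60), a feedback inhibitor of TGF-β signaling, lowest. Of 21 TGF-β targets, 6 were higher and 6 lower, and they spanned Thbs1 (3.95) and Bhlhe40 (1.78) at the top and Tnc (-1.70, lower in 5 of 6 libraries) and Postn (-1.78) at the bottom. Of 7 BMP targets tested, 5 were higher in every library and none lower, with Msx1 at 2.23 and Id3, a target of BMP Smads, at 1.08, while Id4 (-0.09) and Atoh8 (-0.38) were not called. The medians of these 4 lists were -0.09, -0.12, -0.11 and 0.83, against -0.06 over all genes. The other BMP targets higher in every library were Id1 (1.01), Id2 (0.83) and Hey2 (0.54). In VSMC-like over fibroblast-like cells, Msx1 (-1.83) and Id3 (-0.60) were lower, Hey2 was higher (1.74), and Id1 and Id2 were mixed. The dissociation list had a median of 0.82, from Ier3 (1.66) and Ier2 (1.31) to Hsp90aa1 (0.04, higher in 4 of 6 libraries) and Klf6 (-0.20). Of 8 fibroblast markers, 6 were higher and 1 lower in every library (median 2.38). The part of both lists in the BMP target count was not tested.

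The genes most like each member were ranked by Pearson's r of log2(CPM + 1) over 23 sums of cells, 1 for each class and library with enough cells, among 10379 genes. The sums of a class share its cell type and those of a library its depth, so these r are descriptions. Closest to Smad1 were Snrk (r = 0.96), Stx12 (0.95) and Asb4 (0.95), with Snrk at 269 CPM in endothelial-like and 43.2 CPM in VSMC-like cells. Smad7 was closest to Osmr (0.92), Vegfc (0.90) and Cxcl12 (0.90), Smad6 to Pck2 (0.91), Ccser2 (0.91) and Tm4sf1 (0.90), and Skil to Serp1 (0.94), Fnbp1 (0.88) and Noc2l (0.88). Smad5 was closest to Sec61a2 (0.91), Cnot6 (0.90) and Kctd12b (0.90), Smad4 to Nelfa (0.90), Zfp266 (0.89) and Nmt2 (0.88), and Smad3 to Surf4 (0.89), Gab2 (0.87) and Sgsm2 (0.87). Smad2 was closest to Btbd19 (0.89), Fxyd4 (0.87) and Kbtbd2 (0.87), and Ski to Isg20 (0.80), Cmklr1 (0.80) and C2 (0.78). Among the members themselves, r was 0.80 for Smad6 with Smad7, 0.79 for Smad1 with Smad5, 0.08 for Smad2 with Smad3 and 0.10 for Ski with Skil.

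Shares of cells with a UMI were taken at an equal depth of 3000 randomly drawn UMIs per cell, which left out 560 VSMC-like, 1224 fibroblast-like, 154 endothelial-like and 63 leukocyte-like cells of lower depth. Smad3 was seen in 1.75% of VSMC-like (95% exact binomial interval 1.5 to 2.03%) and 6.74% of fibroblast-like cells (6.30 to 7.20%). Smad6 was seen in 12.1% (11.5 to 12.8%) and 6.49% (6.06 to 6.94%). Smad7 was seen in 31.4% of VSMC2-like (29.2 to 33.7%) and 23.8% of VSMC1-like cells (22.8 to 24.8%). Smad1 was seen in 24.6% of endothelial-like cells (20.6 to 29.1%), and Skil in 56.2% of leukocyte-like cells (51.0 to 61.3%). In leukocyte-like cells 0.79% had Smad6 (0.16 to 2.30%) while 8.18% had Myh11 (median depth before thinning 5622 UMIs, against 7203 in VSMC-like cells). These intervals cover counting error only, since cells of a library are not replicates.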

How the data were processed

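Single-cell libraries were made with the 10x Genomics 3′ v3 platform after digestion for 30 min or 1 h and sorting. By the study's methods, samples were prepared on more than 1 day. Neither the day nor the digestion time could be paired with a library number, so their part in differences between libraries was not tested. The authors deposited raw UMI counts per gene and barcode in a single matrix, mapped to mm10 with Cell Ranger 6 per the labels (4.0.0 in the file header). Whether depth was equalized between libraries is not given in the sources used here. The members, matched by symbol, and the lists were chosen with earlier results of these data known. Cells were filtered as in the study, normalized with SCTransform v2, integrated over libraries by RPCA (Seurat 5.3.0, R 4.3.3; 3000 variable genes, 30 dimensions) and clustered at a resolution of 0.25, with the 9 members left out. Clusters were named by the marker list with the highest mean ratio to the median cluster, with at least 3 markers 1.5 times above the median cluster in 10% of the cells.

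VSMC-like cells were clustered again without 176 list and marker genes, at 0.05 for VSMC1-like and VSMC2-like and at 0.3 for subtypes. UMIs were summed per group and library, and log2 ratios were taken after adding 0.5 UMI in proportion to each total, over genes with at least 10 CPM. Named are all members, the 2 genes at each end of every list, the 3 genes most like each member and the 5 leading genes of each cluster described, of which 1 is not reported here. Other genes and clusters were chosen after their values were seen. Doublets, the 5% of cells with the highest scrublet score per library (scanpy 1.11.5), were kept. Ratios between cell groups were paired within libraries and are described by their median, range and signs, with no p-value, since the libraries mix genotypes in an unknown order and are not replicates of 1 group. The alternatives were TMM factors (edgeR 4.0.16), other filters, clusterings and resolutions, removal of doublets, per-cell means, matching on dissociation share and leaving out each library.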

Additional observations from a re-analysis of the deposited data

Results flagged for a closer look

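Over the 72 sets of library values examined with Dixon's criterion, 4 had a library far from the others, and chance alone gives about 1 in 20. Smad7 in VSMC1-like cells was highest in library 5 at 165 CPM, with the next library at 96.5 CPM. Smad6 in leukocyte-like cells was highest in library 5 at 11.9 CPM, from 3 UMIs, with the next at 4.59 CPM. Smad1 in VSMC2-like cells was lowest in library 2 at 19.0 CPM, with the next at 27.6 CPM. The log2 ratio of VSMC-like over fibroblast-like cells for Smad1 was lowest in library 4 at -0.33, with the next at -0.04.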

How the results depend on the processing

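No paired analysis was possible of control against LDS mice because these could not be matched to libraries. The comparisons between cell groups were paired within libraries throughout. No member ratio and no list median changed sign while called. Values moved by more than 1 SD over libraries (for lists, of the medians) in 6 of the ratios and list medians tried, of which the members' stayed within their range over libraries. Of 36 levels by class, TMM factors moved 2, both in endothelial-like cells, Smad5 to 36.3 CPM and Smad7 to 136 CPM. With TMM factors, Skil in VSMC-like over fibroblast-like cells was 0.18. With log-normalized counts without integration, the VSMC2-like over VSMC1-like ratio was -0.29 for Smad5 and -0.19 for Ski. After matching on dissociation share, that of Smad7 was 0.37. With no minimum beyond 1 UMI, the Smad regulators had a median of -0.056 in VSMC2-like over VSMC1-like cells and the receptors -0.29 in VSMC-like over fibroblast-like cells. The cause was not tested. Over all alternatives, Smad3 in VSMC-like over fibroblast-like cells lay between -2.09 and -1.88, and Smad7 in VSMC2-like over VSMC1-like cells between 0.37 and 0.77. Leaving out each library gave -2.06 to -1.99 and 0.67 to 0.68 for these, and moved no ratio by more than 1 SD. With all genes kept, or with log-normalized counts, no resolution gave exactly 2 large subclusters, and the lowest with more than 1 was used, each subcluster being assigned by the naming genes. Smad6 in VSMC-like over fibroblast-like cells was higher in every library with TMM factors (0.71). Shares of cells depend on the thinning, and 51 of 54 moved without it. At 6 CPM, Smad3 in VSMC-like cells rests on 53 to 118 UMIs per library, which limits what its ratio between subclusters can show.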

Other observations

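Smad9, the remaining BMP Smad, was below the minimum of 10 CPM in both main classes, with a median of 6.8 CPM in VSMC-like and 2.6 CPM in fibroblast-like cells, a log2 ratio of 1.47 (0.88 to 2.01), higher in 6 of 6 libraries. Between the smooth muscle subclusters it had 4.5 CPM in VSMC2-like and 7.3 CPM in VSMC1-like cells, with 5 of 6 libraries lower. Among TGF-β targets, Eln, the elastin gene, had a ratio of -1.68 (-2.38 to -1.13) in VSMC2-like over VSMC1-like cells, lower in 6 of 6 libraries. Id1 (1.01) and Id2 (0.83) were higher in VSMC2-like cells of 6 of 6 libraries. Most genes of the dissociation list (median 0.82) and most fibroblast markers (median 2.38) were higher there too, and their part was not tested. An added feature of the table named Sm3_intact, whose sequence is not given in the sources used here, had 0 UMIs in each of the 6 libraries. The choice of these genes followed a look at their values.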
